A study of Drosophila melanogaster with 3 samples.

Results

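Mitochondrial ribosomal protein genes were taken as the protein-coding genes whose symbol in the Ensembl annotation of the dm6 genome starts with mRpL (large subunit) or mRpS (small subunit). They numbered 73 of 13945 protein-coding genes on the 6 main chromosome arms, 47 for the large and 26 for the small subunit. The rule reads symbols only, not peaks. Sites of Aef1, a zinc finger transcription factor, had been profiled by ChIP-seq (chromatin immunoprecipitation with sequencing of the bound DNA) on whole Drosophila melanogaster embryos collected from 0 to 24 h of age. The embryos carried Aef1 fused to enhanced green fluorescent protein (eGFP), and chromatin sheared by sonication was pulled down with an anti-GFP antibody. The 3 biological replicates came from separate embryo samples of 1 fly strain and formed 1 group, so no condition could be compared with another. The labels name Aef1 as the target of the insertion and do not give the promoter that drives the fusion. Neither untagged embryos nor input chromatin were analysed here. Whole embryos hold every embryonic cell type, so a peak does not say in which cells Aef1-eGFP was bound.

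The mitochondrial ribosome makes the few proteins encoded by mitochondrial DNA, which are core subunits of the respiratory chain and of ATP synthase. In animals its proteins are encoded in the nucleus, made in the cytoplasm and imported. Some have counterparts in the bacterial ribosome from which it descends, and others are found in mitochondria only. Aef1 (adult enhancer factor 1) is known as a binder of CAACAA repeats and as a repressor of an enhancer of the alcohol dehydrogenase gene in the fat body.

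Aef1-eGFP was found at the promoters of a minority of these genes. A gene was counted in a replicate when a peak summit, the position of highest signal in a peak, lay within 500 bp of one of its transcript starts. The peaks were those of the authors' list for that replicate after a threshold on IDR, the irreproducible discovery rate. IDR measures how well the rank of a peak repeats between a pair of peak calls. Replicates 1, 2 and 3 had such a summit at 20, 18 and 17 of the 73 genes, or 27.4%, 24.7% and 23.3% (mean 25.1% ± 2.09, SD, n = 3). Over all protein-coding genes the shares were 16.6%, 15.0% and 14.6% (mean 15.4% ± 1.05, SD, n = 3). In each replicate the share was higher among the mitochondrial ribosomal protein genes than over all genes. The replicates read the same 73 genes, so the spread over replicates does not measure the counting error of a share. A promoter summit was present in all 3 replicates at 15 of the 73 genes (20.5%, exact Clopper-Pearson 95% interval 12 to 31.6%), against 11.3% of all genes. In at least 1 replicate it was present at 21 genes (28.8%), against 19.8% of all genes. The interval covers counting error only, and genes are not replicates of a condition. By subunit, a summit in all 3 replicates was found at 10 of 47 large-subunit genes (21.3%, interval 10.7 to 35.7%) and 5 of 26 small-subunit genes (19.2%, interval 6.55 to 39.4%).

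**Figure D1:**
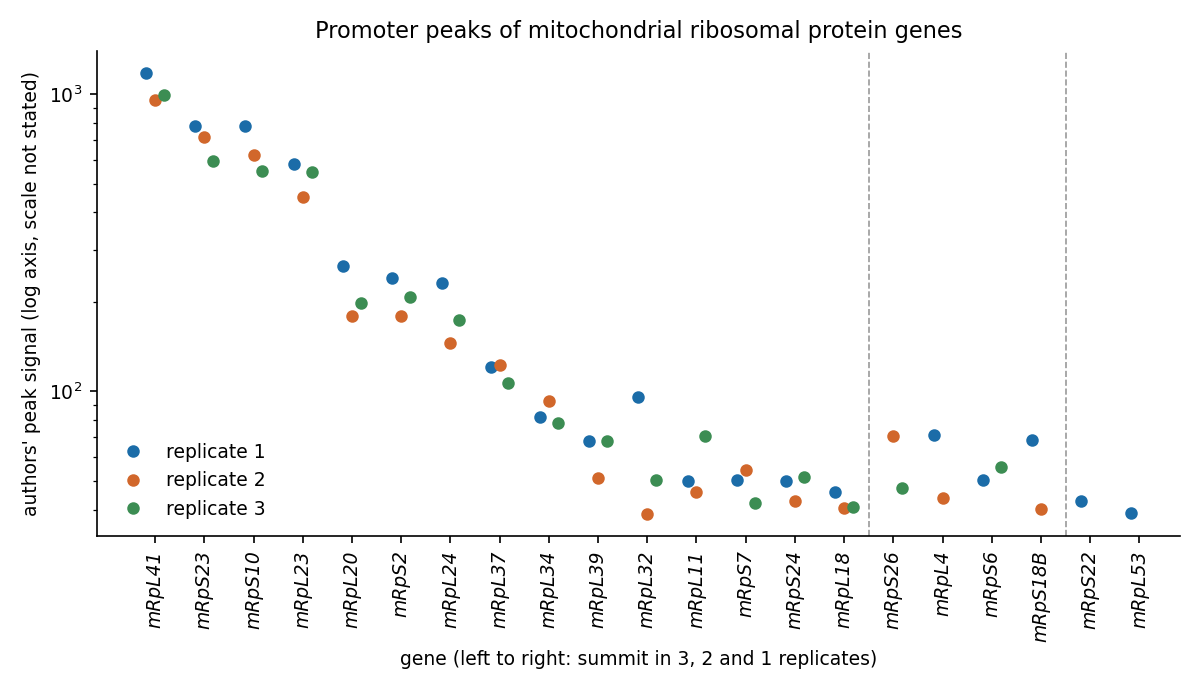
Authors' peak signal at the promoters of the 21 mitochondrial ribosomal protein genes with a summit within 500 bp of a start, 1 point for each replicate, on a log axis (the scale of the signal is not stated in the sources used here). From left to right stand the 15 genes with a summit in 3 replicates, the 4 with one in 2 and the 2 with one in 1; the genes in 1 or 2 replicates lie at signals of 38.9 to 71.5.

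Most of these genes faced a neighbour, and 11 of the 15 summits found in 3 replicates lay in the space between the pair. The sequences of 4 such spaces are given whole. Those of mRpS2, mRpL39 and mRpL32 show where the summit lies relative to words known from promoters. That of mRpS10 holds neither of the words marked below. The 4 spaces were chosen after their values were seen. Each is read on the strand of the mitochondrial ribosomal protein gene from the base after the neighbour's start to the base before its own. Capitals mark CAGCTG, an E-box (a kind of word bound by basic helix-loop-helix proteins), and TATCGATA, the DNA replication-related element or DRE, bound by DREF at promoters of growth and housekeeping genes. On dm6 the spaces are, for mRpS10 and Art3, chr3R:15229409-15229664 (plus strand), for mRpS2 and Mon1, chr2L:4850420-4850640 (minus strand), for mRpL39 and Prosbeta2, chr3L:14999667-14999950 (minus strand), and for mRpL32 and qless, chr3R:31252609-31252871 (plus strand). The summit is base 122 of 256 for mRpS10, base 55 of 221 for mRpS2, base 193 of 284 for mRpL39 and base 111 of 263 for mRpL32.
mRpS10: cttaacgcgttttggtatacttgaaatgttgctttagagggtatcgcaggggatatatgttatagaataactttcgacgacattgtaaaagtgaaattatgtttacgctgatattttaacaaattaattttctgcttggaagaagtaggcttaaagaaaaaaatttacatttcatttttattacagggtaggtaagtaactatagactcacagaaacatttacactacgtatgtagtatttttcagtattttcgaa
mRpS2: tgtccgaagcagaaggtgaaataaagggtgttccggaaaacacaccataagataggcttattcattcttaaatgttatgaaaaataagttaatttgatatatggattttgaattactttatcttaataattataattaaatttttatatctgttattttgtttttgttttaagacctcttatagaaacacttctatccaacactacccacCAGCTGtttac
mRpL39: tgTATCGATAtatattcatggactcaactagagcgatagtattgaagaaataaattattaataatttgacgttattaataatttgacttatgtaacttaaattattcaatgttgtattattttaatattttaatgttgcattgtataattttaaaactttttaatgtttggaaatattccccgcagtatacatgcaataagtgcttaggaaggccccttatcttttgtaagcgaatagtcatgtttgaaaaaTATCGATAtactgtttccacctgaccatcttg
mRpL32: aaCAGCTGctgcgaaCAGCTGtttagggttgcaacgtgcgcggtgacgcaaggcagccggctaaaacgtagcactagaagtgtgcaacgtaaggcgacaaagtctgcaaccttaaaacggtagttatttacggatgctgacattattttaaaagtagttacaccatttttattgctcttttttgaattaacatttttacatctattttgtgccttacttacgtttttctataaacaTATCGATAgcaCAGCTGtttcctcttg

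The next sequences are windows that reach 50 bases to either side of the summit, again on the gene's strand and on dm6. The first 5 are further genes with a summit in 3 replicates, and mRpS6 is the gene whose window holds CAACAA. Windows that overlap an exon (mRpL23 and mRpL11) are left out, which was decided after the values were seen, as are all windows on 1 chromosome arm (mRpL41, mRpL34 and mRpL18) and that of mRpL37. Capitals mark any match, on either strand, to the 13 words searched: ACAGTG in mRpS23, AACAAC and TATAAA (both read on the other strand) in mRpS24, and CAACAA (read on the other strand as TTGTTG) in mRpS6. The windows are chr2L:13835414-13835514 (minus strand) for mRpS23, chr3L:13018074-13018174 (minus strand) for mRpL20, chr2L:4945440-4945540 (minus strand) for mRpL24, chr2L:10386412-10386512 (plus strand) for mRpS7, chr3R:24163761-24163861 (minus strand) for mRpS24 and chr3L:4364402-4364502 (plus strand) for mRpS6.
mRpS23: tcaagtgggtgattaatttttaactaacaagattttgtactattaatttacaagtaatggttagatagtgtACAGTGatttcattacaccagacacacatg
mRpL20: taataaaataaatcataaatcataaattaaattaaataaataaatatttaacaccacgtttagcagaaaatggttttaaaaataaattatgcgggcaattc
mRpL24: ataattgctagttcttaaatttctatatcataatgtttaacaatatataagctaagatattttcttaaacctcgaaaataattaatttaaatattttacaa
mRpS7: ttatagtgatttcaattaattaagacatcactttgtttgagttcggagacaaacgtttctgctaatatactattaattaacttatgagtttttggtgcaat
mRpS24: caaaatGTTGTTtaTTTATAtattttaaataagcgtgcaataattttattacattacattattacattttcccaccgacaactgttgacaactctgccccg
mRpS6: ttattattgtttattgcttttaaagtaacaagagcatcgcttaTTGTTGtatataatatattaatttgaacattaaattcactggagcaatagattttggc

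Genes of the large subunit with a bacterial counterpart gave 7 of the 15 promoters with a summit in all 3 replicates. mRpL23 and mRpL24 encode proteins that, in the bacterial ribosome, sit at the mouth of the tunnel through which the new chain leaves. mRpL23 lies at chr3L:2372844-2373704 on the minus strand of dm6. At mRpL23 the authors' signal was 580, 452 and 549 in replicates 1, 2 and 3, ranks 31, 38 and 24 in lists of 3495, 3126 and 2942 peaks. Its summit lay 56 bp downstream of the nearest of its 3 starts and 106 bp upstream of the start of CG9004. That start is 24 bp from the 5′ start of mRpL23, which is not the start nearest to the summit. mRpL23 was the only 1 of the 15 with a summit past its own start. At mRpL24 the signal was 232, 145 and 174, and the summit stood 129 bp upstream of its start and 89 bp upstream of that of betaggt-I, the beta subunit of a protein prenyltransferase. Replicate 1 was the highest at both genes, and mRpL24 ranked 238, 423 and 261.

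mRpL20, whose bacterial counterpart joins the large subunit early in its assembly, had signals of 264, 180 and 198. Its summit was 257 bp from its own start and 142 bp from that of Icmt, an isoprenylcysteine carboxyl methyltransferase, and the summits of the 3 replicates spread over 42 bp. mRpL34 had 82.2, 93.1 and 78.0, with the summit 100 bp from the start of Dg, which encodes Dystroglycan, and 284 bp from its own. In replicate 1 a second, weaker summit lay 83 bp from the start of mRpL34, while replicates 2 and 3 had no nearer summit. At mRpL32 the signals were 95.7, 38.8 and 50.2, and replicate 1 was higher than both others. The summit of mRpL32 lay 153 bp from its own start and 111 bp from that of qless, a synthase of the coenzyme Q side chain.

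mRpL11 and mRpL18 were the large-subunit genes where the summit lay inside the neighbour. The bacterial counterpart of mRpL11 forms the base of the stalk that contacts translation factors, and that of mRpL18 binds 5S ribosomal RNA. At mRpL11 the signal was 49.8, 45.7 and 71.0, and the summits of the replicates spread over 102 bp, the widest spread among the 15. The median summit was 196 bp upstream of mRpL11 and 70 bp downstream of the start of HtrA2, a mitochondrial serine protease. mRpL18 had 45.8, 40.5 and 40.8, the lowest of the 15 by mean rank but not in replicate 2, where mRpL32 was lower, and the summit was 109 bp downstream of the start of Taz, the tafazzin that remodels cardiolipin. The starts of mRpL18 and Taz are 20 bp apart, so their promoters cannot be told apart with peaks 310 to 316 bp wide.

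The strongest promoter peak of the family was at mRpL41, a protein of the large subunit with no bacterial counterpart. Its signal was 1180, 956 and 994, which ranked 4, 3 and 3 in the whole lists, and the summits lay 134, 138 and 127 bp upstream of its start. No other gene starts within 500 bp of this summit (position 15217751 on arm 2R of dm6, beside a gene at 15217024 to 15217617 on the minus strand), which held for mRpL41 alone among the 15, although CG8079 starts head to head with it at 762 bp. The other proteins of this kind had weaker peaks. mRpL37 had 121, 123 and 107, with the summit 92 bp upstream of its start. mRpL39 had 68.1, 51.3 and 68.2, with the summit 92 bp from its start and 193 bp from that of Prosbeta2, a subunit of the proteasome core.

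In the small subunit, the strongest peaks were at mRpS23, which has no bacterial counterpart, and at mRpS10, whose counterpart is part of the head of the subunit. mRpS23 had 782, 719 and 596 (ranks 14, 14 and 17). Its summits agreed within 3 bp, at 392 bp from its own start and 100 bp from that of CenG1A, a GTPase-activating protein for Arf. No other of the 15 had its summit farther from its own start, within the limit of 500 bp. mRpS10 had 780, 623 and 553 (ranks 15, 22 and 22), and the summit was almost midway, 135 bp from its start and 122 bp from that of Art3, a protein arginine methyltransferase. Replicate 1 was the highest and replicate 3 the lowest at both genes.

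The other 3 small-subunit genes with a summit in every replicate have bacterial counterparts. mRpS2 had 241, 180 and 208, with the summit 55 bp from the start of Mon1, a factor in the activation of Rab7, and 167 bp from its own. mRpS7, whose counterpart organises the assembly of the head, had 50.4, 54.3 and 42.0. Its summit was exactly 200 bp from its own start and 200 bp from that of Cdk1, the kinase that drives entry into mitosis. mRpS24 had 49.9, 42.7 and 51.5, with the summit 155 bp from the start of Apc2, a scaffold of beta-catenin destruction, and 266 bp from its own.

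The peaks of the 15 genes ranged from the top of the lists to near their end. Ranks within a list, divided by its length and averaged over replicates, put 7 genes in the strongest 10% of peaks (46.7% of the 15), against 18% of all genes with a summit in 3 replicates. These were mRpL41, mRpS23, mRpS10, mRpL23, mRpL20, mRpS2 and mRpL24, at mean rank fractions of 0.104%, 0.475%, 0.627%, 0.973%, 7.03%, 7.18% and 9.74%. The next, mRpL37, stood at 21.1%, and the step with the largest ratio of mean signals was from mRpL23 to mRpL20. The strongest 50% held 9 of the 15 (60%), against 72.5% of all such genes, and mRpL18 came last at 88.3%. The median rank fraction was 0.211 of the list, against 0.314 for all such genes. It was 0.266, 0.313 and 0.358 when replicate 1, 2 or 3 was left out, where 1 or 2 weaker genes joined. The value for all such genes is given with 3 replicates only. Whether the family stands before or after them with a replicate left out cannot be read from these values. Order repeated between replicates, with Spearman correlations of the signal over these 15 genes of 0.917 (replicates 1 and 2), 0.929 (1 and 3) and 0.953 (2 and 3). They are given as a description, since the genes are not independent replicates and were listed in all 3 by choice. Positions repeated too, since the summits of a gene spread over 3 to 102 bp with a median of 21 bp.

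A further 4 genes had a promoter summit in 2 replicates. mRpS26 had 70.7 in replicate 2 and 47.4 in replicate 3, mRpL4 had 71.5 in replicate 1 and 43.9 in replicate 2, mRpS6 had 50.4 in replicate 1 and 55.5 in replicate 3, and mRpS18B had 68.8 in replicate 1 and 40.2 in replicate 2. The replicate without a thresholded peak held a weaker one in the authors' ranked list, which also keeps peaks that miss the threshold (an IDR of 0.01, or 2 as −log10). Its −log10 of the IDR was 1.76 for mRpS26, 1.95 for mRpL4, 1.62 for mRpS6 and 0.25 for mRpS18B. The values of mRpS26, mRpL4 and mRpS6 were close below the threshold, and that of mRpS18B was far from it. Replicate 1 alone had summits at mRpS22, with 42.7, and at mRpL53, with 38.9. The window of mRpL53 also held the starts of AGO1, which encodes Argonaute 1, and of CG33155, which starts at the same base as mRpL53. Another gene's start also lay within 500 bp of the summit at mRpS26 (CG13698), mRpS6 (Cip4), mRpS18B (Kua) and mRpS22 (CG5003), but not at mRpL4. It was nearer to the summit than the own start at mRpS26 (194 against 236 bp) and mRpS22 (139 against 253 bp). At mRpS6 and mRpS18B the own start was nearer.

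**Figure D2:**
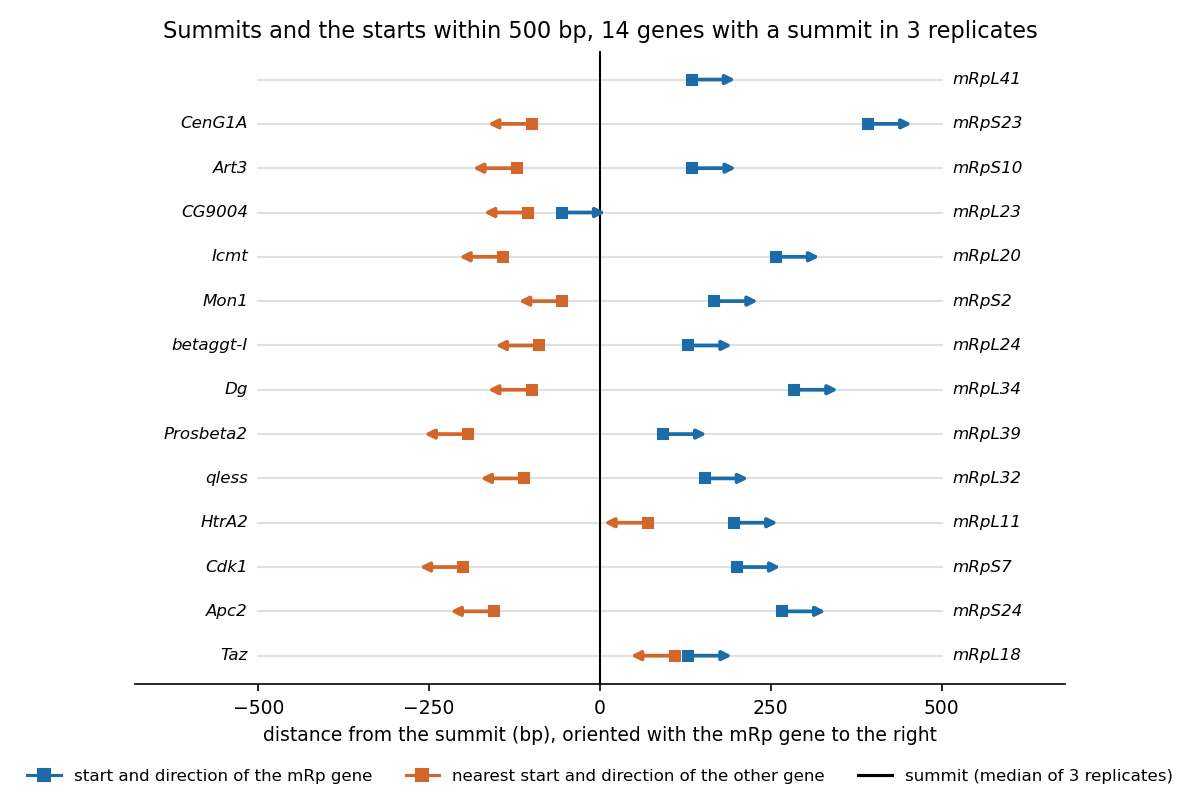
Position of transcript starts around the summit (median of 3 replicates, vertical line) for 14 of the 15 genes (mRpL37 is not drawn), in bp and turned so that the mitochondrial ribosomal protein gene points right. Blue squares mark its start nearest to the summit, orange squares the nearest start of the other gene within 500 bp, and arrows the direction of transcription; 10 of the summits drawn lie between the 2 starts, and mRpL41 has no other start in the window.

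Shared starts were the rule at these promoters. Of the 15 summits, 14 (93.3%) also lay within 500 bp of the start of another protein-coding gene, against 60.3% of the 1570 genes of any kind with a summit in 3 replicates. The same count of 14 lay upstream of the own start, with a median position of -153 bp, against -130 bp for all such genes. Divergent starts bracketed 11 summits (73.3%, against 47.3%), and 10 lay nearer to the other gene's start than to that of the mitochondrial ribosomal protein gene (66.7%, against 28.9%). At mRpS7 the distances were equal. mRpL41, mRpL23 and mRpL39 were among those with the summit nearer to their own start. A peak at a shared space cannot be assigned to either gene from these data, so each of the 14 counts for its neighbour as well.

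Having a gene head to head was itself common in the family. A neighbour on the opposite strand whose start lies upstream within 1000 bp was found for 58 of the 73 genes (79.5%), against 36.2% of all protein-coding genes. All 21 genes with a promoter summit in any replicate had such a neighbour, as did 37 of the 52 genes with none. Of all protein-coding genes with a summit in 3 replicates, 67.1% had one. Among genes with a head-to-head neighbour, 15 of 58 mitochondrial ribosomal protein genes (25.9%) and 20.8% of all genes had a summit in 3 replicates. Among genes without one, it was 0 of 15, which allows a share of up to 20%, against 5.81% of all genes. Within these classes the family stood nearer to the background than in the comparison with all genes, at 25.9% against 20.8% instead of 20.5% against 11.3%.

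**Figure D3:**
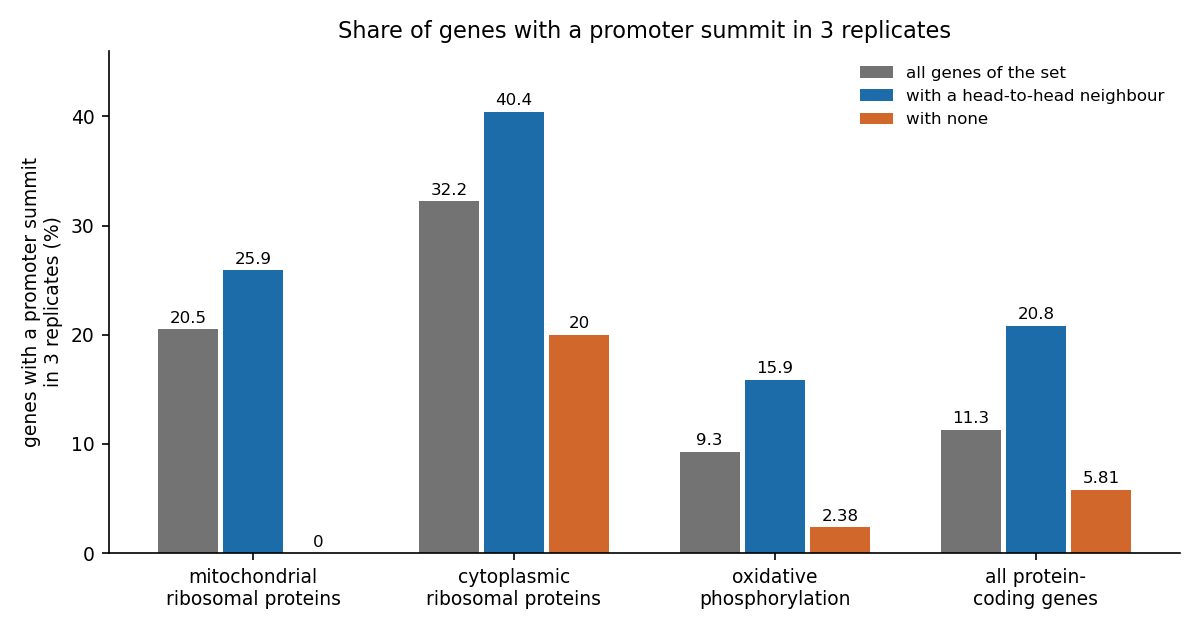
Share of genes with a promoter summit in 3 replicates (%), for all genes of a set, for those with a head-to-head neighbour within 1000 bp and for those with none. For mitochondrial ribosomal protein genes the bars stand at 20.5%, 25.9% and 0%, and for all protein-coding genes at 11.3%, 20.8% and 5.81%; the bars carry no error because genes are not replicates.

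The spaces between head-to-head starts spanned similar ranges with and without a summit, but over all genes the share with a summit differed by width. The spaces had a median of 285 bp (20 to 762) in the 15 genes. In the 37 genes with a head-to-head neighbour and no summit it was 242 bp (21 to 695). With spaces of 150 to under 500 bp, 11 of 33 genes had a summit in 3 replicates (33.3%), against 27.2% of all genes with such a space. With spaces under 150 bp it was 3 of 20 (15.0%, against 17.9%), and with spaces of 500 to 1000 bp it was 1 of 5 (20%, against 10.5%). The highest share was in the middle class for the family and for all genes. The classes were set after the values were seen.

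Compared with other gene families of protein synthesis and respiration, the mitochondrial ribosomal protein genes fell in between. Cytoplasmic ribosomal protein genes had a summit in 3 replicates at 28 of 87 (32.2%, interval 22.6 to 43.1%), and genes for subunits of oxidative phosphorylation at 8 of 86 (9.3%, interval 4.1 to 17.5%). The list for oxidative phosphorylation keeps paralogs of subunits such as COX4L and ND-24L, which had no summit in any replicate and lower its shares. The cytoplasmic ribosomal list also keeps paralogs. Some had no summit in any replicate (such as RpS5b and RpL10Aa) and some had one in 3 replicates (such as RpL34a and RpL34b). The intervals of the mitochondrial ribosomal protein genes (12 to 31.6%) overlapped both. Of the summits, 15 of 28 in the cytoplasmic ribosomal set (53.6%) and 7 of 8 in oxidative phosphorylation (87.5%) were shared with another start, against 14 of 15 (93.3%) in the mitochondrial ribosomal set. Those nearer to the other start were 4 (14.3%) and 1 (12.5%), against 10 (66.7%), and the median positions were -58.5 and -7 bp, against -153 bp. The share of cytoplasmic ribosomal genes was 40.4% with a head-to-head neighbour and 20% without. For oxidative phosphorylation these shares were 15.9% and 2.38%. In the strongest peaks, RpL34b of the cytoplasmic ribosome had 241, 251 and 228, and ND-ASHI of respiratory complex I had 205, 229 and 153, both below the 4 strongest mitochondrial ribosomal protein genes in each replicate.

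Other genes of mitochondrial translation and genome expression are to be read against the shares over all genes, 11.3% in 3 replicates and 19.8% in at least 1. tko and bonsai, mitochondrial ribosomal proteins that carry other names, had none in any replicate. Of 9 translation factors none had a summit in 3 replicates, and the release factor gene mRF1 had 1 in replicate 3, with a signal of 33.8. Of 15 mitochondrial aminoacyl-tRNA synthetases, ProRS-m had a summit in 3 replicates, with 84.7, 82.4 and 71.5, in a window shared with Snup and CG42304. ArgRS-m had one in replicate 2 (50.8) and PheRS-m in replicate 1 (38.1), so 6.67% of these genes had a summit in 3 replicates and 20% in at least 1. Of 12 genes of mitochondrial DNA maintenance and transcription, mtSSB, the single-stranded DNA binding protein, had a signal above 100 in replicate 1, of 110 in replicate 2 and of 47.7 in replicate 3, at 339 bp from its start. PolrMT, the mitochondrial RNA polymerase, had 43.1 and 53.3 in replicates 2 and 3, so the shares were 8.33% and 16.7%. With so few genes in each list, these shares do not separate from those over all genes.

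By arm, the 15 genes were 4 of 12 on 2L (10.5% of all genes there had a summit in 3 replicates), 3 of 12 on 2R (11.0%), 3 of 17 on 3L (13.3%) and 5 of 21 on 3R (11.2%). On X it was 0 of 11, which allows a share of up to 27.3%, while 10.4% of all genes on X had a summit in 3 replicates. A lower share on X was therefore not detectable with so few genes.

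No thresholded summit lay at the promoters of 52 of the 73 genes. In the large subunit these were mRpL1, mRpL2, mRpL3, mRpL9, mRpL10, mRpL12, mRpL13, mRpL14, mRpL15, mRpL16, mRpL17, mRpL19, mRpL21, mRpL22, mRpL27, mRpL28, mRpL30, mRpL33, mRpL35, mRpL36, mRpL38, mRpL40, mRpL42, mRpL43, mRpL44, mRpL45, mRpL46, mRpL47, mRpL48, mRpL49, mRpL50, mRpL51, mRpL52, mRpL54 and mRpL55. In the small subunit they were mRpS5, mRpS9, mRpS11, mRpS14, mRpS16, mRpS17, mRpS18A, mRpS18C, mRpS21, mRpS25, mRpS28, mRpS29, mRpS30, mRpS31, mRpS33, mRpS34 and mRpS35. The nearest thresholded summit was at a median of 8655.5 bp from their starts. By the median over replicates the closest were mRpL27 at 1244 bp, mRpL13 at 1429 bp, mRpL46 at 1911 bp and mRpL33 at 1919 bp. In a single replicate, mRpS25 came closest to the limit from outside, with a summit at 533 bp in replicate 1.

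The ranked lists, of 29199, 43924 and 49093 peaks, show whether weak peaks lay below the threshold at these 52 genes. A ranked summit within 500 bp of a start was listed in 3 replicates for 14 of them, in 2 for 9, in 1 for 12 and in none for 17. Past an IDR of 0.05 in at least 1 replicate stood 7, and past 0.01 stood 1, mRpL47. With lists this long, and no share over all genes beside them, these counts describe the 52 genes only. They do not show a difference from other genes. The protein of mRpL47 has a bacterial counterpart (L29) at the exit of the tunnel. Its ranked peak had signals of 53.1, 67.6 and 64.7 with summits 52, 52 and 59 bp upstream of its start, in the space of 99 bp to Kdm3, and it was in none of the thresholded lists. The next were mRpL21, with −log10 of the IDR of 1.10, 1.95 and 0.25, and mRpL17, with 1.81 and 0.12 in replicates 1 and 3.

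**Figure D4:**
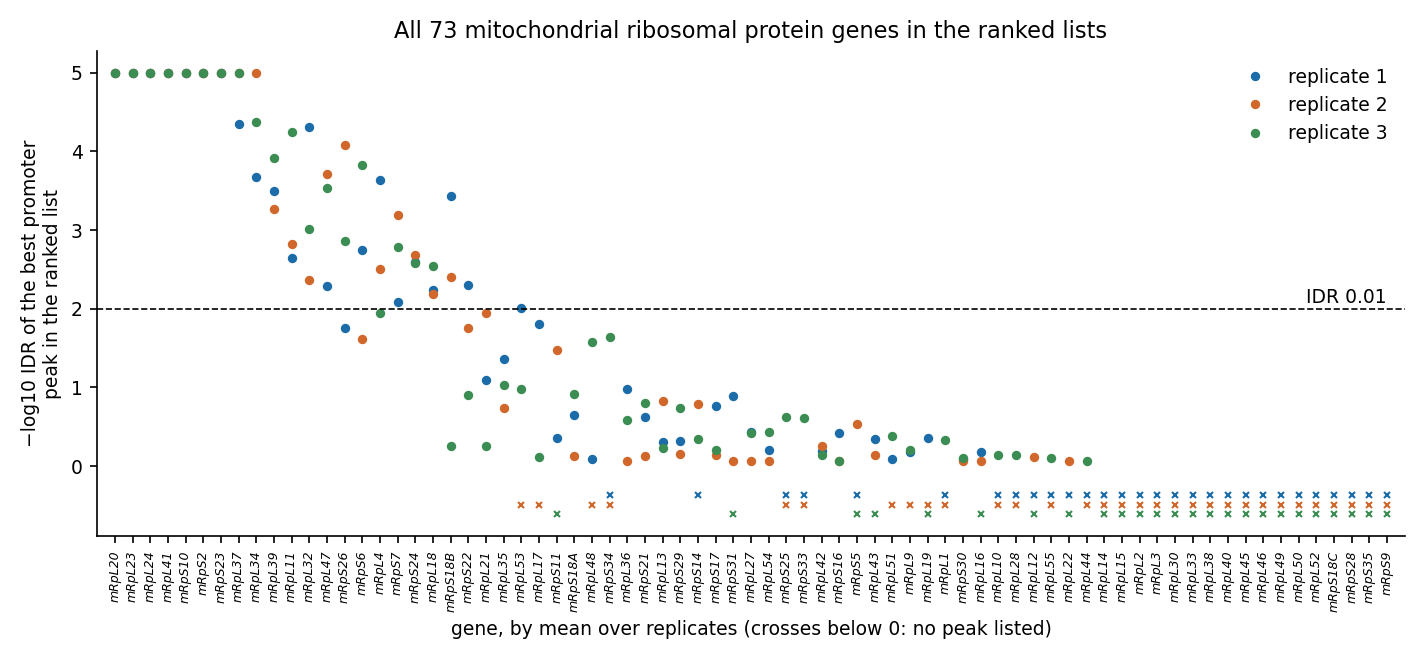
Negative log10 of the IDR of the best promoter peak in the authors' ranked list for each of the 73 genes, 1 point for each replicate, with crosses below 0 where no peak is listed and a dashed line at an IDR of 0.01. Genes are ordered by their mean; mRpL47 lies above the line in 3 replicates although the thresholded lists do not hold it.

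The word Aef1 is known for was not found at these summits. CAACAA, on either strand, was in 0 of the 15 windows reaching 50 bp to either side of the summit, which allows a share of up to 20%, and in 18.6% of the 1090 distinct promoter summits of all genes. With so few windows, the limit lies above the background share. The longer run CAACAACAA was in 0, against 5.32%. Without replicate 2 the count of CAACAA was 1, since mRpS6 then joined the genes counted. The overlapping word AACAAC was in 2 windows (13.3%, against 15.5%), at mRpL41 and mRpS24. A CAACAA within 500 bp of the summit was present at 11 of the 15 genes (73.3%, against 75.7% of the 1090), at 82 to 359 bp from it. Of the other words, TATAAA was in 3 windows (20%, against 23.7%), at mRpL23, mRpL37 and mRpS24, and CGATA, the core of BEAF-32 sites, was in 1 (6.67%, against 19.3%). That window, at mRpL34, also held the E-box CAGCTG (against 4.86%) and promoter motif 7, CATCNCTA (against 2.57%). The word ACAGTG was in 1 window, at mRpS23, against 8.72%. Words in none of the 15 were the DRE (TATCGATA, in 2.66% of all promoter summits), the core of promoter motif 1 (GGTCACAC, in 1.65%), the E-box CACGTG (in 0.917%), the GAGA word (GAGAGAG, in 1.38%) and the NRF1 core (GCGCATGC, in 0%). The windows were AT-rich, with 29.6% ± 8.05 GC (SD over 15 windows) against 34.4% ± 10.6 over the 1090.

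The promoters of the family, from 250 bases before to 50 after the start, held the E-box CAGCTG and the DRE in larger shares than those of all genes, both in genes with a summit and in genes without. The E-box was in 40 of 73 (54.8%), against 17.7% of 13945 promoters of the same length. Its share was 53.3% in the 15 genes with a summit in 3 replicates and 55.8% in the 52 with none. The DRE TATCGATA was in 15 of 73 (20.5%), against 9.36%, with 26.7% in the 15 and 17.3% in the 52. CAACAA was in 17 (23.3%), against 27.8%. Other words went either way: the core of motif 1 was in none of the 15 and in 15.4% of the 52 (7.7% of all promoters), motif 7 in 26.7% and 7.69% (6.42% of all), and GAGAGAG in 1.37% of the 73 (5.87% of all). Within 500 bp of the summit, CAGCTG was present at 9 of the 15 genes (60%, against 50.6% of the 1090 promoter summits). It lay 38 to 288 bp away with a median of 92 bp, nearest at mRpL34, and at 7 it was within 60 bp of the gene's start. In the printed space of mRpL32, the E-boxes lie at bases 3, 16 and 248 and the DRE at base 237, near the ends, with the summit at base 111. In that of mRpL39 the DREs lie at bases 3 and 253 and the summit at base 193, and in that of mRpS2 the E-box lies at base 211 and the summit at base 55. A match to these letters is a description of the sequence and was not tested as a site.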

How the data were processed

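Chromatin immunoprecipitation of Aef1-eGFP was analysed from 3 replicates of 1 group, numbered as in the labels. Per replicate, the authors deposited 1 ranked and 1 IDR-thresholded peak list on dm6. For aligner, peak caller and versions, nothing is stated in the sources used here. Peak signal is on the authors' own scale, which is not stated. It served for ranks inside 1 list, and at single genes it is also set side by side between replicates or averaged over them. With the scale and read depth unknown, a higher signal in 1 replicate is not read as more binding. Scores in the deposited thresholded lists run from 830 to 1000. They are 125 times the negative log2 of the IDR, capped at the upper end. The deposited ranked lists give −log10 of the IDR. The thresholded lists lack 107, 145 and 141 ranked peaks that reach the same score. A further 4 deposited lists cover the series as a whole and served as alternatives. Read depth is unknown, so intervals and limits (3 counts for a count of 0) cover counting error in genes only.

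Summits were assigned to starts of 13945 protein-coding genes (Ensembl release 115, BDGP6.54) within 500 bp. The summit of a gene is the median over replicates of its strongest promoter peak. Sequence came from the RefSeq dm6 assembly. The assignment was tested on simulated peaks. With 1 group no test was made. The name of 1 neighbouring gene, and what rests on it, is not reported here. Genes could be named by membership; neighbours sharing a window and up to 4 genes of each related list were named too. The members and lists were chosen with earlier results of these data known. Alternatives were other windows, IDR thresholds, starts and lists, and leaving out each replicate. Python 3.11.15 was used, with SciPy 1.17.1, pandas 2.3.3, matplotlib 3.10.9 and numpy 2.4.6.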

Additional observations from a re-analysis of the deposited data

Results flagged for a closer look

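A peak at the promoter of mRpL47 appears in the ranked lists of all 3 replicates, which the counts do not use, and in none of the thresholded lists. Its −log10 of the IDR was 2.29 in replicate 1, 3.71 in replicate 2 and 3.53 in replicate 3, each past the value of 2 that the thresholded lists reach. None of the 4 lists for the whole series holds it either. The peak spans chr3R:9515802-9516117 in replicate 1, on dm6, and its window also holds the starts of Kdm3 and CG8176. Counting it would make 16 genes with a summit in 3 replicates in place of 15. What removed it from the thresholded lists was not tested. Groups of 3 samples are too small to look for a single sample far from the others.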

How the results depend on the processing

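The count of 15 genes with a promoter summit in 3 replicates was 10 with a window of 250 bp or an IDR of 0.001, 15 with 1000 bp, with peak overlap or with the 5′ start only, and 19 with an IDR of 0.05. Without 1 replicate the count was 16 to 17, with no share over all genes to set beside it. The narrower window dropped mRpL11, mRpL20, mRpL34, mRpS23 and mRpS24, the stricter IDR mRpL11, mRpL18, mRpL32, mRpS7 and mRpS24, and the looser IDR added mRpL4, mRpL47, mRpS6 and mRpS26. For all genes the shares were 8.83% at 250 bp, 13.3% at 1000 bp, 11.9% with peak overlap, 8.82% at an IDR of 0.001 and 13.4% at 0.05. For the family they were 13.7%, 20.5%, 20.5%, 13.7% and 26.0% in the same order. No share over all genes is given for the 5′ start only. The lists for the whole series gave 26, 23, 20 and 24 genes, the 15 among them in each, while 20.2%, 18.8%, 18.3% and 19.3% of all genes had a summit there, and 11, 11, 9 and 10 of the small subunit. The ranked lists at the authors' threshold, chosen after seeing the data, gave 16. The cause of these moves was not tested.

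The mean share per replicate, 25.1%, moved to 19.2% with 250 bp, 31.1% at an IDR of 0.05 and 18.3% at 0.001, and was 24.0% to 26.0% without a replicate. The mean share over all genes is not given for these settings. Small-subunit genes fell to 3 with 250 bp and 3 at an IDR of 0.001. Both settings left 10 genes with a summit in 3 replicates. Of these, 9 had a shared summit in each setting, and 5 and 6 had the summit nearer to the other gene, against 14 and 10 of 15. CAACAA was found at 1 gene at an IDR of 0.05 (mRpS6), at 1 within 100 bp of the summit, and at 0 to 1 without a replicate. The median rank fraction of 0.211 became 0.154 with 250 bp, 0.444 at an IDR of 0.05, 0.103 at 0.001, and 0.266 to 0.358 without a replicate. No paired analysis was possible because there is 1 group.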
